A study of Mus musculus with 10 samples.

Results

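The liver transcriptome described here is that of mice fed a western diet for 12 weeks, read in the 3 biopsies of the vehicle group among the 10 biopsies of the study. The 3 biopsies were chosen by their sample titles, vehicle 1 to vehicle 3, and no measured value entered that choice. All 10 mice were wild-type C57BL/6 animals on the same diet for the same time, and every biopsy was taken before any mouse received vehicle or obeticholic acid (OCA), an agonist of the farnesoid X receptor. The other 7 biopsies came from mice that received OCA afterwards, 4 of them later classed as non-responders and 3 as responders. Sex and age of the mice and the hour and feeding state at biopsy are not given in the sources used here. No liver of mice on a control diet was analysed here, so the levels below are those of the western diet liver and not changes caused by the diet.

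Hepatocytes, the main cells of the liver, make most plasma proteins, run the urea cycle and gluconeogenesis, build triglycerides and lipoproteins, and turn cholesterol into bile acids. Smaller populations share the tissue, namely cholangiocytes of the bile ducts, stellate cells, sinusoidal endothelial cells and Kupffer cells, which are the resident macrophages. A western diet supplies much fat together with sugar and cholesterol, and the liver answers such a supply through lipid storage, fatty acid oxidation, secretion and bile acid synthesis. In a bulk sample, fewer cells of a type and less RNA per cell cannot be told apart.

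The deposited table lists 10913 genes with counts above 0 in all 10 biopsies. Counts over these genes came to 59248371, 53892299 and 76529328 in vehicle 1, 2 and 3, and to 40432530 to 60393369 in the other 7 biopsies. Levels are given as FPKM, fragments scaled to transcript length and library size, which allows genes to be compared per length. A mean FPKM of at least 1 was reached by 8738 genes, of at least 10 by 3975, of at least 100 by 618 and of at least 1000 by 42. The 10 genes of highest mean FPKM held 17.2% of the summed level, the first 100 held 41.7% and the first 1000 held 75.5%. The first 185 genes held 50% of the summed FPKM and the first 2670 held 90%. Vehicle 1 stood apart from the other 2 biopsies in feeding-state, fatty acid oxidation and clock genes, described further on, so the value of each biopsy is given where it matters. Without vehicle 1, 29 of the 30 most abundant genes kept their place among the 30.

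Housekeeping genes stood near the top of the ranking. Actb, cytoplasmic beta-actin, had rank 2 with 9389, 10596 and 11536 FPKM in vehicle 1, 2 and 3, high in all 3 biopsies. Rn45s, from which ribosomal RNAs are cut, had rank 3 with 10694, 11224 and 6053 FPKM, and it took 5.72% ± 1.75 (SD, n = 3) of the counts. Ppia, the proline isomerase cyclophilin A, followed at rank 7 with 4800.1 ± 663 FPKM.

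Genes of hepatocyte work made up much of the rest of the first 30. The liver MHC class I gene H2-Q10, whose product is secreted, had rank 4 with 7079, 5477 and 5301 FPKM. Its relatives H2-K1 (2821 ± 219.8 FPKM) and H2-D1 (1558 ± 260.1) present peptides at the cell surface. Since these paralogs are alike in sequence and the treatment of shared reads in the counting was not given in the sources used here, their single levels are uncertain. Rbp4, the plasma carrier of retinol, had 4395, 5477 and 4549 FPKM, and Fabp1, the fatty acid binding protein of liver cytosol, 1805, 4420.1 and 5475. Fabp1 was thus low in vehicle 1 and high in vehicle 2 and 3. Of amino acid enzymes, Bhmt, which remethylates homocysteine, had 2709 ± 207 FPKM, Cps1, the entry enzyme of the urea cycle, 2342 ± 619, Hpd, of tyrosine breakdown, 1555 ± 324, Gnmt, a glycine methyltransferase, 1526 ± 149.5, and Glud1, glutamate dehydrogenase, 1400.0 ± 59.2. Gstm1, a glutathione transferase, had 3814 ± 470.3 FPKM, Adh1, alcohol dehydrogenase, 2169 ± 582, and Akr1c6, a hydroxysteroid dehydrogenase, 1561 ± 599. Slc38a3, a glutamine carrier, stood at 2500.1 ± 693 and Fth1, the heavy chain of the iron store ferritin, at 3146 ± 756. Short RNAs and histones followed, with Snord15b (2694 ± 579.9 FPKM) and Snora81 (2076 ± 449.6), which guide RNA modification, and Hist1h4d (1712 ± 222). Of translation, Rpl32, of the large ribosomal subunit, and Eef1a1, an elongation factor, had means of 2145 and 1799 FPKM.

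**Figure D1:**
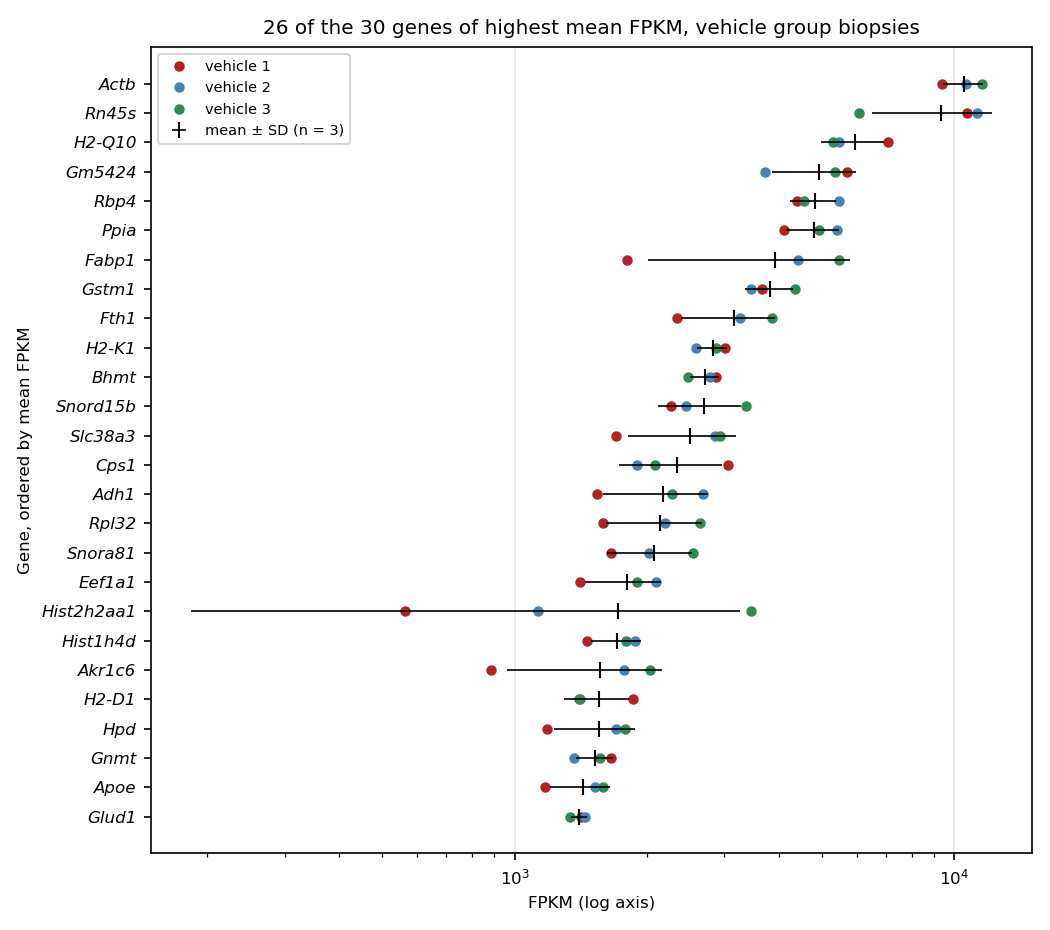
FPKM on a log axis of 26 of the 30 genes of highest mean level in the vehicle group, with 1 point per biopsy, a tick for the mean and a line for the SD (n = 3). Actb and Rn45s sit at the top, the 3 biopsies of most genes lie close together, and vehicle 1 is the lowest point for Fabp1 (1805), Slc38a3 and Akr1c6.

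The markers that define the hepatocyte were present in every biopsy, but albumin was not among the most abundant transcripts. Alb had 463, 503 and 542 FPKM in vehicle 1, 2 and 3, which is rank 105 of 10913. Apoa1, the main protein of high density lipoprotein, had 510.3, 602 and 434 FPKM (rank 99), and Apoe, a ligand of lipoprotein receptors, had 1175, 1524 and 1589 (rank 29). Of 14 hepatocyte markers in the list, 14 were in the table and 14 had a mean of at least 10 FPKM. Above Alb and Apoa1 in this list, beside Apoe, were Tat, tyrosine aminotransferase (836 ± 364 FPKM), and Fgb, the fibrinogen beta chain (675 ± 61.7), and next below them was Ttr, transthyretin (325 ± 63.9). Among the lowest were Ahsg, fetuin-A (49.6 ± 11.99), and the alpha-1-antitrypsin genes Serpina1a and Serpina1c (47.9 and 42.4 FPKM). The antitrypsin genes are paralogs, so their single levels are uncertain in the same way as those of the MHC genes. The summed level of the list was 4791 to 5001 FPKM in the vehicle group and 4957 to 6892 in the other 7 biopsies.

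Ass1, argininosuccinate synthase of the urea cycle, stood far below its own pseudogene. Its level was 0.249, 0.777 and 0.135 FPKM, whereas Gm5424, annotated as a processed pseudogene, had 5700.2, 3703 and 5338 and had rank 5. Gm5424 lies on chromosome 10 (62071123 to 62072362, GRCm38) and Ass1 on chromosome 2 (31470207 to 31520672), and their aligned transcripts agree in 99.5% of 1240 bases. Reads of such a pair can be assigned to either copy, so neither level stands for one gene alone. The same was seen for Oaz1, the antizyme of ornithine decarboxylase (1.68 ± 1.25 FPKM), and Oaz1-ps (196 ± 27.4), and for Rpl34, of the large ribosomal subunit (11.3 ± 1.97), and Rpl34-ps1 (284 ± 81.0). Of the genes in the table that the GENCODE annotation calls pseudogenes, 19 had a mean of at least 10 FPKM. Below are 120 coding bases of each gene and the matching stretch of its pseudogene, shown because they let a reader see how little separates the copies, with differing bases in capitals (GENCODE M21 transcripts, GRCm38).
Ass1: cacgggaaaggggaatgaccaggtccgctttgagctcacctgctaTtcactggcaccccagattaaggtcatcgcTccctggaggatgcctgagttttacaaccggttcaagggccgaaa
Gm5424: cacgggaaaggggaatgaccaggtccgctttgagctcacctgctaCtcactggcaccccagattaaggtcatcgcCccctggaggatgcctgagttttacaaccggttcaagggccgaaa
Oaz1: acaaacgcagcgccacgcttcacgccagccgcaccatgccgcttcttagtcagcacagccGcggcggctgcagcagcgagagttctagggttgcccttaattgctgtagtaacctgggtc
Oaz1-ps: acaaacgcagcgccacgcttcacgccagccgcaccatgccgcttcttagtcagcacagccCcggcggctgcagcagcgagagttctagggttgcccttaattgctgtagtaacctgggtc
Rpl34: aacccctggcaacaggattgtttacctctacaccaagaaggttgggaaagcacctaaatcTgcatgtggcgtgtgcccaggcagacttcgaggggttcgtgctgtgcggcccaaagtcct
Rpl34-ps1: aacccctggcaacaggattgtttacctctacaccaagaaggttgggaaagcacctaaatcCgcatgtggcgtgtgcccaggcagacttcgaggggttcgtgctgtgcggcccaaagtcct

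The Ass1 pair differed at 2 bases of its stretch and the Oaz1 and Rpl34 pairs at 1 base of the stretch. Further pairs of this kind were Gm10052 (587 ± 68.0 FPKM), which is identical over 960 bases to Hnrnpa1, a splicing factor (33.5 ± 6.64), and Atp6v0c-ps2 (29.2 ± 2.59), which matches Atp6v0c, a subunit of the vacuolar proton pump (0.278 ± 0.0352). For Gm12070 the order was the reverse, with 283 ± 76.6 FPKM against 661 ± 19.5 for Gapdh, the glycolytic dehydrogenase. Copies of equal sequence also occur among histones. Hist2h2aa1 had 563, 1132 and 3456 FPKM and Hist2h2aa2 526, 1054 and 0.0502, although their 393 coding bases do not differ at any position. The sum of the 63 histone cluster genes was 10105, 13538 and 15911 FPKM in the 3 biopsies, and 13185 ± 2919 (SD, n = 3) in the mean. The proliferation marker Mki67 stood at 0.118 ± 0.00830 FPKM and Top2a, the topoisomerase of dividing cells, at 1.69 ± 0.232, so these did not share the high level of the histone transcripts. The histone set was chosen after its values were seen.

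**Figure D2:**
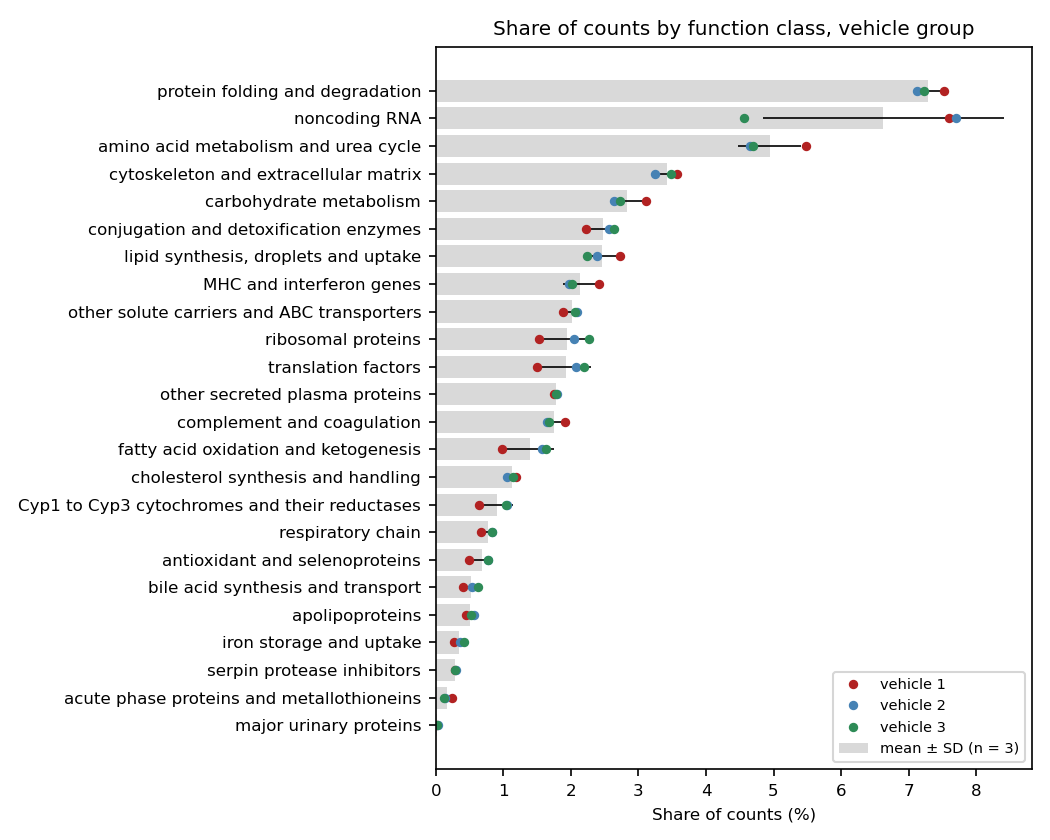
Share of counts (%) by function class in the vehicle group, with bars for the mean, lines for the SD (n = 3) and 1 point per biopsy. Protein folding and degradation (7.29%) and noncoding RNA (6.62%) lead, and vehicle 3 is the low point of noncoding RNA (4.57%).

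By function, genes were sorted by symbol into 24 classes that do not overlap, and 9197 genes with 51.6% ± 1.18 (SD, n = 3) of the counts fell in no class. Protein folding and degradation held 7.29% ± 0.208. Noncoding RNA held 6.62% ± 1.78, most of it Rn45s, and amino acid metabolism and the urea cycle 4.94% ± 0.466. Cytoskeleton and matrix genes had 3.43% ± 0.166, carbohydrate metabolism 2.83% ± 0.251, and conjugation and detoxification enzymes 2.48% ± 0.218. Lipid synthesis, droplets and uptake had 2.45% ± 0.254, fatty acid oxidation and ketogenesis 1.40% ± 0.361, cholesterol synthesis and handling 1.13% ± 0.0717, and bile acid synthesis and transport 0.525% ± 0.107. The 6 classes of secreted plasma proteins (apolipoproteins, acute phase proteins, serpins, complement and coagulation, major urinary proteins and others), 180 genes in all, came to 4.66%, 4.47% and 4.41% of the counts in vehicle 1, 2 and 3. Ribosomal proteins, which are short, had 1.95% ± 0.376 of the counts but 6.41% ± 1.05 of the summed FPKM. The MHC and interferon class had 2.14% ± 0.247 of the counts and was led by H2-Q10. By summed FPKM, 21 of the 25 shares, genes in no class included, moved by more than the spread between the biopsies, and cholesterol synthesis and handling held 0.365% ± 0.0569. Class sizes depend on which symbols were written into each class.

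Among abundant carbohydrate genes were Pck1, which makes phosphoenolpyruvate for gluconeogenesis (1461, 595 and 717 FPKM), Mdh1, malate dehydrogenase of the cytosol (851 ± 187), and Khk, the kinase that traps fructose (752 ± 147). Of plasma protein genes below Rbp4 and Apoe, abundant ones were C4b and C3, of complement (747 ± 247 and 642 ± 91.4 FPKM), Plg, plasminogen (697 ± 44.3), Hpx and Hp, which bind heme and hemoglobin (593 ± 129 and 394 ± 254), and Serpinc1, antithrombin (542 ± 49.6). Cyp3a11, a drug-metabolizing cytochrome, had 1144 ± 168 FPKM, Cyp2e1, which oxidizes ethanol, 252, 808 and 827, and Cyp2d9, a male-biased cytochrome, 508 ± 169. Cat, catalase, had 941 ± 296 and Sod1, superoxide dismutase, 653 ± 109. Of 15 male-biased liver genes 15 were in the table, 12 of them at a mean of at least 10 FPKM, and of 11 female-biased genes 1 was, Cyp2a4 with 1.34 ± 0.740 FPKM.

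Markers of other cell types were lower than those of hepatocytes. The median over the 14 hepatocyte markers was 131 FPKM, against 8.93 for 4 cholangiocyte markers, 2.93 for 11 stellate cell markers, 4.42 for 13 sinusoidal endothelial markers and 1.36 for 10 Kupffer cell markers. Cholangiocyte genes included Spp1, osteopontin (12.3 ± 0.522 FPKM), the keratin Krt19 (5.83 ± 2.42) and Sox9 (4.62 ± 0.512), whereas others of the 8, such as Krt7, Epcam and Cftr, are not among the listed genes. Stellate cells store retinol, and their esterifying enzyme Lrat had 0.374 ± 0.101 FPKM, while Reln, the glycoprotein reelin, had 53.1 ± 5.23 and Des, desmin, 7.50 ± 1.46. Endothelial scavenger receptors differed between themselves, with 19.5 ± 3.64 FPKM for Stab2, 30.01 ± 6.77 for Mrc1 and 4.42 ± 0.945 for Stab1, and the adhesion molecule Pecam1 had 0.142 ± 0.0307 and Clec4g 0.201 ± 0.0439. Of Kupffer cell genes, Cd5l, a secreted scavenger receptor, had 31.2 ± 6.70 FPKM, Slc40a1, the iron exporter ferroportin, 16.5 ± 1.91, Csf1r, the receptor of macrophage growth factor, 15.6 ± 2.70, Clec4f 1.24 ± 0.277 and Vsig4 0.1096 ± 0.0570. Thus the defining markers Lrat, Pecam1, Clec4g and Vsig4 were near 0 while other genes of the same lists were not.

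Matrix and scar genes were measured through 8 of 10 listed genes, with Col1a1 and Col1a2, the chains of type I collagen, at 88.9, 78.3 and 36.9 and 51.8, 49.5 and 31.6 FPKM, and Col3a1 at 36.5, 30.9 and 20.01. These 3 collagen genes were lowest in vehicle 3, as were 6 of the 8. Acta2, smooth muscle actin of activated stellate cells, had 10.6 ± 1.91 FPKM, and Timp1 and Postn are not among the listed genes. Of 10 genes of lipid-associated macrophages 6 were listed, led by Ctsd, a lysosomal protease (42.9 ± 7.22 FPKM), Cd9 (19.99 ± 7.36) and Lpl, lipoprotein lipase (19.5 ± 4.43), and Trem2, Gpnmb, Fabp5 and Mmp12 were not. Of T and NK cell markers 0 of 10 were listed, of B and plasma cell markers 0 of 8, of dendritic cell markers 0 of 7, of adipocyte markers 0 of 5 and of monocyte and neutrophil markers 1 of 10, which was Lyz2 (4.16 ± 0.823 FPKM). The table holds no gene with a 0 in any of the 10 biopsies, so a marker missing from it may have had reads in some. Most inflammatory signal genes were low or missing. Of 15 such genes 9, among them Tnf, Il6 and Ccl2, are not in the table. A mean below 1 FPKM was found for 4, among them Il1b (0.312 ± 0.143) and Icam1 (0.659 ± 0.0472). However, 1 gene of the list had at least 10 FPKM, and the list summed to 74.9, 96.2 and 110.9 FPKM in vehicle 1, 2 and 3.

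**Figure D3:**
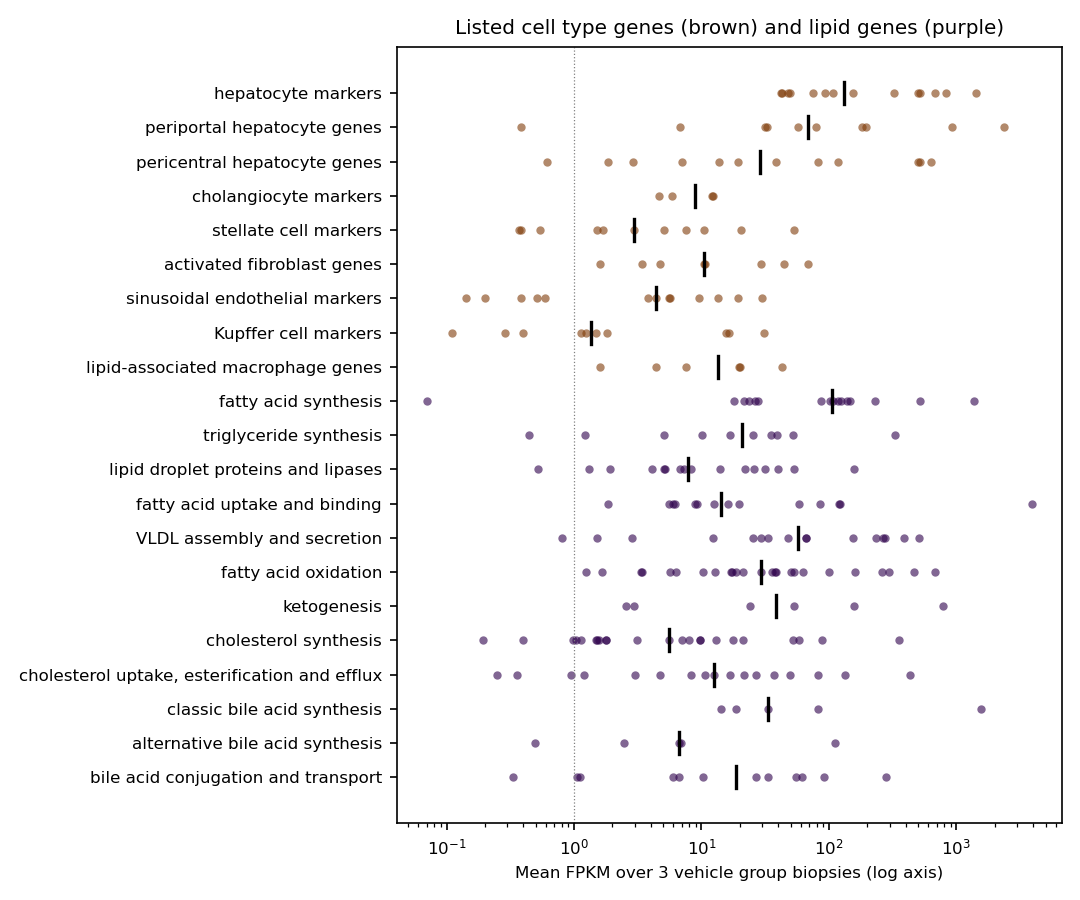
Mean FPKM over the 3 vehicle group biopsies on a log axis for the listed genes of 9 cell type lists and 12 lipid and bile acid lists, with 1 point per gene and a bar for the median. Hepatocyte markers (median 131 FPKM) lie to the right of Kupffer cell markers (1.36), and fatty acid synthesis (105) to the right of cholesterol synthesis (5.59).

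Fatty acid synthesis was the most abundant of the lipid lists by median, at 105 FPKM over 16 genes. Scd1, the desaturase that makes oleate, had 1699, 1265 and 1152 FPKM in vehicle 1, 2 and 3. Fads2, a desaturase of polyunsaturated fatty acids, had 518 ± 60.6, Acly, which supplies cytosolic acetyl-CoA, 412, 157 and 126, Acaca, acetyl-CoA carboxylase, 164, 82.0 and 75.3, and Fasn, fatty acid synthase, 224, 114 and 74.9. The last 3 were highest in vehicle 1, and 12 of 15 genes of the list at 1 FPKM or more had their highest value there. The transcription factor genes Srebf1 and Mlxipl, which respond to insulin and to glucose, stood at 146 ± 14.2 and 117 ± 33.9 FPKM. Pnpla3, a lipase linked to fatty liver in humans, was at 0.160, 0.0304 and 0.0191 FPKM. For triglyceride synthesis, Dgat2, of the last step, had 208, 349 and 426 FPKM and Dgat1, the other enzyme of that step, 0.447 ± 0.161, and Lpin2, a phosphatidate phosphatase, had 52.3 ± 18.2.

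Lipid droplet genes had a median of 7.84 FPKM over 16 listed genes. Cideb, a droplet protein needed for lipoprotein lipidation, had 156 ± 16.6 FPKM, Plin2, the droplet coat protein, 49.0, 67.4 and 42.1, G0s2, an inhibitor of adipose triglyceride lipase, 39.7 ± 14.2, and Pnpla2, that lipase, 25.7 ± 7.75. Plin5 and Plin4 were at 1.93 ± 1.54 and 0.517 ± 0.342, and Cidea, Cidec, Hilpda and Plin1 are not in the table. Uptake and binding of fatty acids was dominated by Fabp1, ahead of Got2, which also serves as a fatty acid binding protein (122 ± 21.02 FPKM), Slc27a2, a fatty acid carrier (119 ± 32.4), and Acsl1, an acyl-CoA synthetase (85.7 ± 21.1). Cd36, a fatty acid translocase, had 5.56 ± 0.775 FPKM. For lipoprotein secretion, the carboxylesterase Ces1d had 293, 725 and 497, Apob, the structural protein of very low density lipoprotein, 125, 174 and 163, Mttp, which loads lipid onto it, 25.5 ± 7.11, and Apoa5, an activator of lipoprotein lipase, 37.1, 48.3 and 3.22. Apoa5 was thus low in vehicle 3 alone.

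Fatty acid oxidation genes had a median of 29.3 FPKM over 25 genes, with Acaa1b, a peroxisomal thiolase (351, 938 and 763 FPKM) and Etfa, an electron carrier (362, 539 and 501), among the leaders. Cpt1a, which admits fatty acids to mitochondria, had 6.28 ± 0.849 FPKM, and Ppara, the receptor that drives the pathway, 1.58, 5.19 and 3.30. Acaa1b, Etfa and Ppara were each lowest in vehicle 1, and 24 of the 25 oxidation genes had their lowest value there, against 42.9% of all genes at 1 FPKM or more.

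Cholesterol synthesis genes were low beside those of fatty acid synthesis, with a median of 5.59 FPKM over 23 genes, of which 7 had at least 10 FPKM. Beside Insig2, whose spread is described further on, Insig1 and Scap, regulators that act in sterol sensing, had 58.4 ± 16.7 and 51.9 ± 3.84 FPKM. Of the enzymes, Hmgcs1, of an early step, had 21.2 ± 6.91 FPKM, Acat2, of the first step, 17.7 ± 1.31, Fdps, which makes farnesyl diphosphate, 13.05 ± 5.69, Fdft1, squalene synthase, 2.23, 5.72 and 8.82, Idi1, an isomerase of isoprenoids, 0.395 ± 0.0310, and Sqle, squalene epoxidase, is not in the table. Lrp1, a receptor of remnants, had 427, 395 and 466 FPKM and Abca1, the cholesterol exporter, 133 ± 24.9. The transporter genes Abcg5 and Abcg8, which secrete sterols into bile, had 10.7 ± 3.93 and 37.0 ± 9.62 FPKM.

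Genes of the classic pathway of bile acid synthesis spread widely between the 3 mice. Cyp7a1, whose product limits the rate of this pathway, had 4.92, 72.1 and 168 FPKM in vehicle 1, 2 and 3. Cyp8b1, which directs synthesis to cholic acid, had 7.76, 20.3 and 14.6, and Akr1d1, a steroid reductase, 9.80, 22.8 and 23.8. These 3 and Akr1c6 were lowest in vehicle 1, and the 3 values of Cyp7a1 were far apart. The other gene of the list, Hsd3b7, went the opposite way and was highest in vehicle 1 (77.01, 10.96 and 11.7). Of the alternative pathway, Cyp27a1 had 115, 106 and 113 FPKM, Cyp7b1 8.08, 7.19 and 5.54 and Cyp39a1 0.533, 0.468 and 0.485, a narrow range in each, and Star, which carries cholesterol into mitochondria, is not in the table. Among transporters, Abcb4, which moves phospholipid into bile, had 282 ± 42.4 FPKM, Slc10a1, which takes up bile acids, 61.8 ± 18.1, and Abcb11, which exports them, 33.2 ± 10.96. Nr1h4, the farnesoid X receptor gene, stood at 2.41, 4.13 and 3.12 FPKM and its target Nr0b2 at 7.03, 4.21 and 3.52, while the partner receptor gene Rxra had 64.3 ± 5.04, Nr1h3, the liver X receptor, 21.4 ± 5.597, and Rora 10.6 ± 2.86.

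The spread between the 3 biopsies was small for most abundant genes and large for a minority. Over the 3975 genes with a mean of at least 10 FPKM the median coefficient of variation was 15.4%. It was below 10% in 1167 genes and above 50% in 147. Vehicle 1 stood apart. Over 8738 genes its log2 FPKM correlated with those of vehicle 2 and vehicle 3 with Pearson's r of 0.954 and 0.942, against 0.978 between vehicle 2 and 3, as a description across genes that share these libraries. It was more than 2-fold above both others in 218 genes and more than 2-fold below both in 202. Vehicle 2 had 30 and 28 such genes and vehicle 3 had 29 and 74. Against all 9 other biopsies of the study, vehicle 1 had 25 genes more than 2-fold above and 44 more than 2-fold below each of them, in CPM (counts scaled to library size by TMM).

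The 10 genes of highest coefficient of variation at 10 FPKM or more were high in a single biopsy, apart from Cebpa. Chka, choline kinase, had 75.2, 7.48 and 5.39 FPKM, Insig2, which retains the sterol sensor in the endoplasmic reticulum, 218, 24.3 and 20.2, Tubb2a, a tubulin, 2590.4, 327 and 236, and Hsd3b7, a dehydrogenase of bile acid synthesis, 77.01, 10.96 and 11.7. Zbtb16, a zinc finger factor, Frmd4b and Chrna4 had the same pattern, high in vehicle 1 with 126, 18.2 and 19.4, 39.6, 6.03 and 5.23 and 58.1, 11.5 and 7.31 FPKM. Hbb-b1, a beta-globin, had 136, 8.94 and 18.2 FPKM, while Hba-a2, an alpha-globin, had 0.557, 0.565 and 0.672 and Alas2, of heme synthesis in red cells, 4.00, 5.96 and 7.05, which did not share the high value of vehicle 1. Cebpb and Cebpa, factors of hepatocyte genes, had 5.25, 5.64 and 224 and 169, 9.44 and 587, with the highest value in vehicle 3.

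In vehicle 1 whole groups were displaced together. Of 15 genes of gluconeogenesis and the feeding state at 1 FPKM or more, 12 had their highest value in vehicle 1, against 40.5% of all genes. G6pc, glucose-6-phosphatase, had 392, 102 and 76.0 FPKM, Ppargc1a, a coactivator of fasting genes, 69.4, 12.8 and 15.7, and Igfbp1, an insulin-repressed binding protein, 3.34, 0.574 and 0.250. Circadian clock genes moved further. Arntl, which encodes the clock activator BMAL1, had 24.9, 0.929 and 1.36 FPKM, and Nfil3, a repressor that competes with Dbp at its sites, 2.55, 0.443 and 0.218. Both were high in vehicle 1. Dbp, an output factor of the clock, had 0.465, 25.8 and 22.2 FPKM, Per3, a clock repressor, 0.0961, 3.56 and 2.77, Tef, related to Dbp, 8.39, 52.6 and 59.5, and Ciart, a repressor of the clock activator, 1.51, 11.2 and 13.6. These were low there. Of 15 clock genes 10 were below and 3 above all 9 other biopsies in vehicle 1, against 13.3% below and 12.3% above among 8738 genes, and there Arntl had 67.2 CPM against 1.15 to 12.8 in the other 9 and Dbp 0.727 against 19.7 to 42.8. The hour of each biopsy was not given in the sources used here, and its part in the values of vehicle 1 was not tested.

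**Figure D4:**
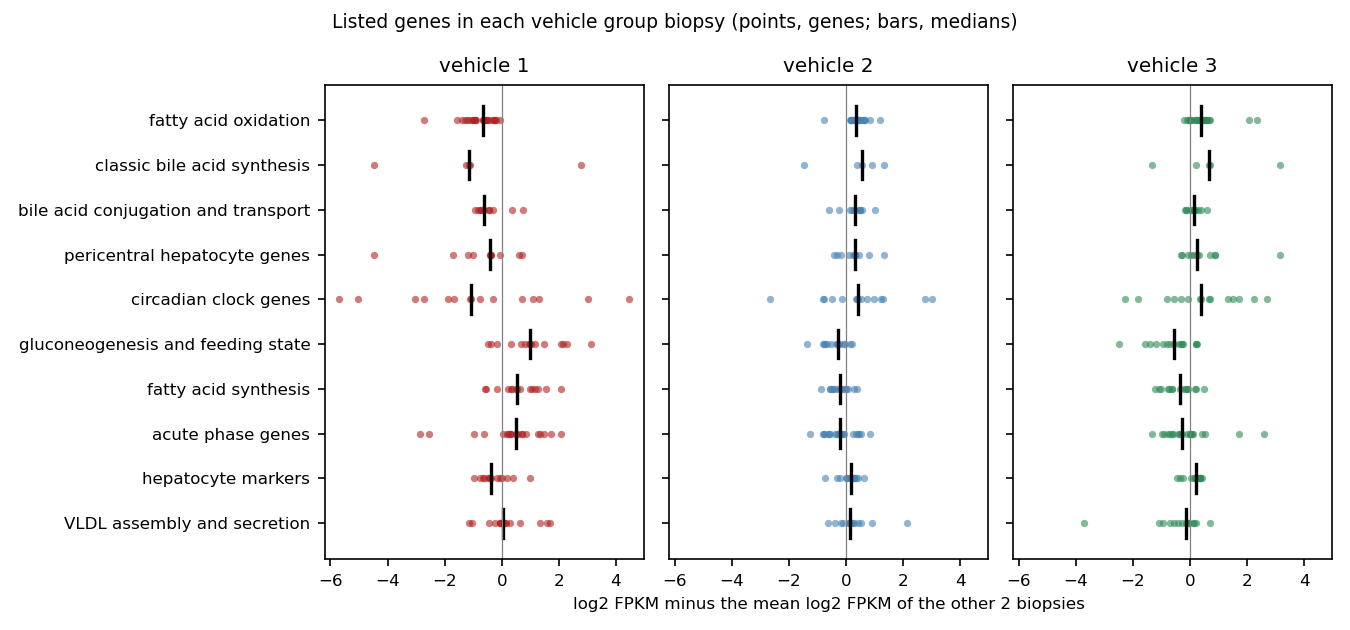
log2 FPKM of each vehicle group biopsy minus the mean log2 FPKM of the other 2, for listed genes at 1 FPKM or more, with 1 point per gene and a bar for the median. In vehicle 1 the fatty acid oxidation genes lie left of 0 (median −0.65), clock genes spread widest and gluconeogenesis genes lie to the right (1.00).

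Clock genes are read through short motifs, of which 3 were searched in RefSeq promoters (GRCm38.p6), 250 bases before to 50 after each annotated start. They are the E-box CACGTG, bound by the clock activators, the D-box TTATGTAA, bound by Dbp and its relatives, and TAGGTCA, bound by ROR and REV-ERB receptors, on either strand. An E-box was found in 4 of 13 clock genes with a promoter in the table, against 7.15% of all 32851 promoters and 12.1% of 8252 listed genes with 1 or more promoters. The D-box was in 1 of 13 clock genes, against 0.938% of promoters and 0.703% of the listed genes. TAGGTCA was in 2 of 13, against 2.61% of promoters and 2.47% of the listed genes. Dbp, which was low in vehicle 1, had no match of these 3 motifs, and neither had Clock, Cry2, Nr1d1, Nr1d2 and Hlf. The stretches with a match are shown for Ciart, Tef and Per3, which were low in vehicle 1, and Nfil3, which was high, with each match in capitals. A link between the motifs and the values of vehicle 1 was not tested. Ciart has 3 matches in the stretch shown, Per3 has 2, and the match of Nfil3 is on the opposite strand.
Ciart (chr3:95882259-95882353, minus strand): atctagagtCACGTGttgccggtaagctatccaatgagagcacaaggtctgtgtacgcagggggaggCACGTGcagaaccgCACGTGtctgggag
Tef (chr15:81802513-81802572, plus strand): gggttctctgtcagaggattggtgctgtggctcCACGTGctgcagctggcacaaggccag
Per3 (chr4:151044806-151044880, minus strand): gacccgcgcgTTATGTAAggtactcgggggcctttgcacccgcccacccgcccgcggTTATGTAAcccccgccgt
Nfil3 (chr13:52981040-52981099, minus strand): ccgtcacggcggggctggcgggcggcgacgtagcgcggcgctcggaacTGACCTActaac

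A TATA box, searched as TATAAA from 40 to 15 bases before the start on the strand of the gene, was in 10 of 66 of the 100 most abundant genes with a promoter in the table, against 112 of 8252 listed genes (1.36%). TAGGTCA was in 8 of the 66, against 204 of the 8252 listed genes (2.47%). The E-box was in 7 of the 66 (10.6%, against 12.1%) and the D-box in 0 (against 0.703%). Among the genes with the box were Fabp1, Rbp4, H2-Q10 and Gstm1, whose 80 bases before the start are shown with the box in capitals. Rbp4 and Gstm1 have a further annotated start that is not shown. A match is a description of the sequence and not a site.
Fabp1 (chr6:71199799-71199878, plus strand): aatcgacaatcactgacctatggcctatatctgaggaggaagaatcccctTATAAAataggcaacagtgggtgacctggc
Rbp4 (chr19:38124812-38124891, minus strand): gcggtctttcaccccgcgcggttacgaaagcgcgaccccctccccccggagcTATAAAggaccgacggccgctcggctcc
H2-Q10 (chr17:35470009-35470088, plus strand): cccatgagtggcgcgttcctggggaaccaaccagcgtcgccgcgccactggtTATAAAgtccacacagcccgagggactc
Gstm1 (chr3:108017819-108017898, minus strand): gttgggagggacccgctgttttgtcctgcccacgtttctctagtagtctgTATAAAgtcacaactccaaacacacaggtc

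Against the 7 biopsies of later OCA mice, the vehicle group had lower levels of some secreted hepatocyte products, although no mouse had been treated. Apoe had 1387, 1794 and 1907 CPM in vehicle 1, 2 and 3 and 3467 to 5507 (median 3702) in the other 7, a log2 fold change (vehicle against later OCA) of −1.33 with a standard error of 0.20 and an adjusted p of 0.0199 in the quasi-likelihood test of edgeR. All vehicle values lay below the others. Agt, angiotensinogen, had 7.43, 8.32 and 8.12 CPM against 17.3 to 27.8 (median 20.5), a log2 fold change of −1.41 (adjusted p = 0.0120, edgeR). Ahsg had 50.1, 77.4 and 81.8 against 129 to 172 (median 139) (log2 fold change −1.08, adjusted p = 0.0280, edgeR). Alb had 884, 959 and 1054 CPM against 955 to 1893 (median 1631), with a log2 fold change of −0.72 that did not pass (adjusted p = 0.0855, edgeR), and Apoa1 likewise −0.59 (adjusted p = 0.1004, edgeR). Of 10844 genes tested, 129 (1.19%) passed at an adjusted p under 0.05, 92 of them lower (0.848%) and 37 higher (0.341%) in the vehicle group.

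Of the 180 genes of the 6 secreted classes, 22 were called lower, which is 12.2%, and 3 higher. Their median log2 fold change was −0.19, against −0.00 over all genes tested. As a whole the 6 classes held 4.51% ± 0.129 (SD, n = 3) of the counts, within the 3.57% to 4.72% of the other biopsies, in which Rn45s took more of the total. By summed FPKM they held 5.53%, 5.22% and 4.79% in vehicle 1, 2 and 3 against 5.28% to 6.43%, so that only vehicle 1 overlapped with the others. Among the 14 hepatocyte markers 4 were lower, Apoe, Apoa2, Ahsg and Serpina1c. Of these markers 9 had an unadjusted p under 0.05 in edgeR, 7 were called by DESeq2 and 5 by limma. The groups did not overlap in 8 of the 14, against 10.3% of all genes tested. Among apolipoproteins 5 of 14 were lower, namely Apoe, Apoa2 (−1.36), Apoc1 (−1.20), Apoc3 (−1.05) and Apoh (−0.84). Among complement and coagulation genes 5 of 52 were lower, such as the mannose-binding lectins Mbl1 (−1.44) and Mbl2 (−1.54), and 2 were higher, among them F5, coagulation factor V (0.73). Among serpins 3 of 23 were lower, Serpina1c, Serpina3k and Serpina3m, and among major urinary proteins 2 of 18, Mup3 and Mup21. Reads of these serpins and major urinary proteins can be shared with their paralogs. Of the lipid lists, VLDL assembly and secretion had 2 of 16 lower, Apoc3 and Angptl8, fatty acid uptake and binding 1 of 14, Dbi, which binds acyl-CoA (−1.21), and fatty acid synthesis 1 of 16, Thrsp, a lipogenic regulator (−1.37). Bile acid conjugation and transport had 1 of 12, Abcb4, which was higher (0.73). At an unadjusted p under 0.05 in edgeR, the VLDL, uptake, fatty acid synthesis and bile acid transport lists had 8, 2, 3 and 4 genes. In the same order, 7, 2, 1 and 4 genes had no overlap, against 10.3% of all genes tested. Fatty acid oxidation had 0 of 25 called by edgeR (5 at an unadjusted p under 0.05, 1 called by DESeq2 and 0 by limma), with a median of −0.14, and cholesterol synthesis 0 of 23 (7, 3 and 0 in the same order), with a median of −0.08. Cyp7a1 had a log2 fold change of 0.48 with overlapping groups (adjusted p = 0.723, edgeR). Of stellate, endothelial, Kupffer and cholangiocyte markers 0 of 11, 13, 10 and 4 were called by edgeR, with 2, 3, 2 and 1 at an unadjusted p under 0.05, 2, 2, 0 and 1 called by DESeq2 and 2, 1, 0 and 1 by limma. Their summed levels were 100.4 to 108, 79.9 to 109, 61.2 to 78.1 and 32.9 to 36.2 FPKM in the vehicle group and 60.9 to 86.3, 48.7 to 82.9, 38.8 to 75.1 and 13.04 to 32.4 in the others. The sums, which are not scaled by TMM, did not overlap for stellate cells and cholangiocytes. Gene by gene in CPM, 2 of 11 stellate and 1 of 4 cholangiocyte markers had no overlap, against 10.3% of all genes tested. The median log2 fold changes of these 2 lists were 0.10 and 0.44. Defining markers such as Lrat, Pecam1 and Vsig4 were near 0 in the vehicle group. The part of these cell types in the hepatocyte values was not tested.

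**Figure D5:**
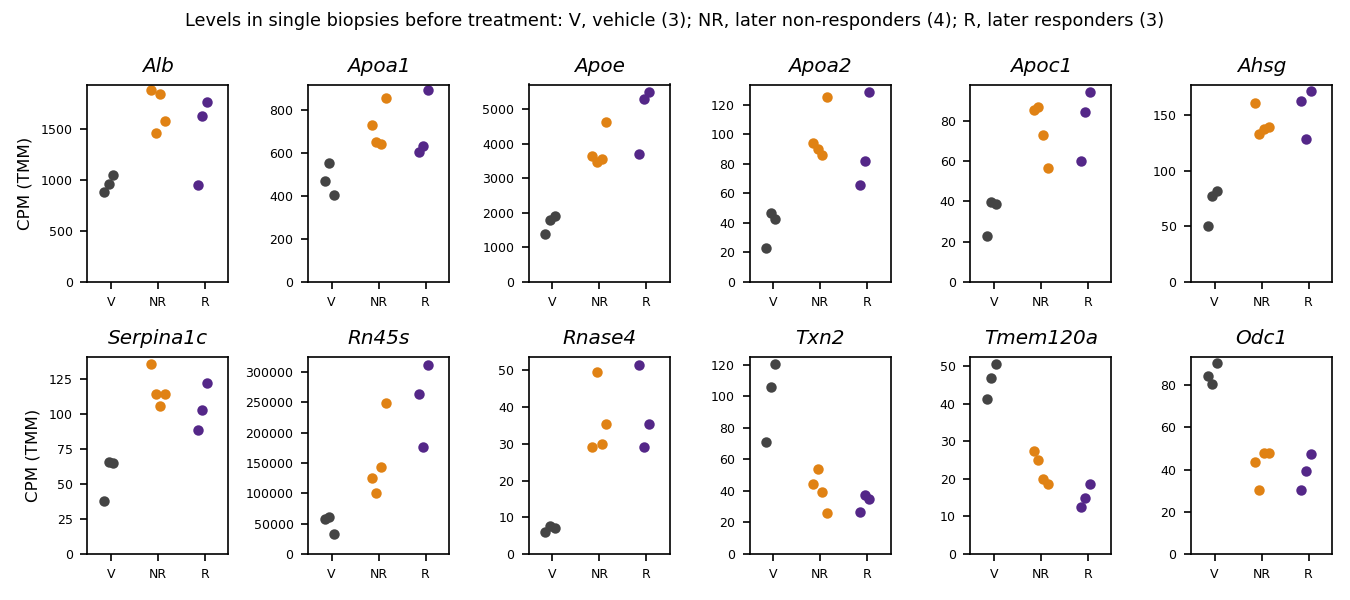
Levels in CPM after TMM scaling of 12 genes in each biopsy, with 1 point per biopsy for the vehicle group (V, 3), later non-responders (NR, 4) and later responders (R, 3). The vehicle points of Apoe, Ahsg and Rn45s lie below all others, those of Txn2, Tmem120a and Odc1 above, and those of Alb overlap with 1 responder.

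Among called genes whose groups did not overlap, those of largest fold change included noncoding RNAs and a few secreted products. On the lower side were Mir5625, for which no fold is given since it had 1, 1 and 1 reads in vehicle 1, 2 and 3, Mir6236 (−2.91), Spsb2 (−2.75), 8430408G22Rik (−2.47) and Rnase4, a secreted ribonuclease with 5.98, 7.73 and 7.10 CPM against 29.0 to 51.4 (median 35.4) (log2 fold change −2.42, standard error 0.25, adjusted p = 0.00242, edgeR). They were followed by the MHC class I gene H2-Q9 (−2.38), whose reads can be shared with paralogs, Hmgn5, a nucleosome binding protein (−2.31), Rpph1, the RNA of ribonuclease P (−2.17), Angptl8, an inhibitor of lipoprotein lipase (−2.05), and Rn45s (−1.96). On the higher side were the small nucleolar RNAs Snord89 (3.11), Snord16a (1.61) and Snora23 (1.38), Cav1, caveolin 1 (2.04), Rps29 (1.41) and Rpl8 (1.15), of the ribosome, Txn2, mitochondrial thioredoxin (71.3, 106 and 120.4 CPM against 26.2 to 53.9 (median 37.3), log2 fold change 1.40), Diablo, a mitochondrial protein of cell death (1.30), and Tmem120a (1.24). These were chosen for the size of the change, 10 in each direction, among called genes of at least 1 FPKM whose groups did not overlap. The share of Rn45s moved with the groups, 3.70% to 6.87% of the counts in the vehicle group and 10.97% to 25.7% in the others, and its part in the other differences was not tested.

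The calls rested on few mice. Without vehicle 1 there were 20 called genes, without vehicle 2 and without vehicle 3 there was 1 each, without non-responder 3 and without responder 3 there were 9 each, and without responder 2 there were 20. The 22 lower secreted genes became 2, 1 and 1 without vehicle 1, 2 and 3, 3 without non-responder 3, 4 without responder 2 and 3 without responder 3, while the median over the 180 genes was −0.30, −0.21 and −0.24 without vehicle 1, 2 and 3. The gene called without vehicle 2 or 3 was Rnase4.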

How the data were processed

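Liver RNA of 10 biopsies was sequenced, and the 3 of the vehicle group are described here beside the 7 of the later OCA group. Read quality was examined by the authors in FastQC (0.11.7), reads were trimmed in Trimmomatic (0.38), and alignment to mm10 used HISAT2 (2.1.0). StringTie, of a version not named in the sources used here, gave the levels. They left out every gene with a 0 in any biopsy. The authors deposited whole read counts, FPKM and quantile-normalized log2 values of FPKM + 1. The deposited score and p-value columns hold the authors' own group comparisons (signed folds, test statistics and p-values) and were not used, nor were the log2 group means. The labels name both a stranded TruSeq kit and a SMARTER kit, and the use of strand in counting is not given. A gene and an overlapping antisense gene may therefore share reads.

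Genes were ranked by mean FPKM, and values are the mean ± SD (n = 3). Counts of the vehicle group were compared with those of the 7 other biopsies (non-responders and responders as 1 group) by edgeR (4.0.16) in R (4.3.3). The comparison used TMM scaling, filterByExpr (count of 10, total of 15), the quasi-likelihood test and Benjamini-Hochberg adjustment at 0.05. A prior count of 2 entered only the log2 CPM by which same-numbered biopsies were compared. The fit was tested on simulated data. Alternatives used DESeq2 (1.42.0), limma (3.58.1), other scalings and filters and samples left out. Genes were placed with GENCODE M21 (10662 of 10913 symbols matched), pseudogenes were aligned with blastn (2.17.0), and tables were made with pandas (2.3.3). The labels show the replicates as separate biopsies, so p-values measure the spread between these samples. Codes in the titles share their first number between non-responder 1 and responder 1, and between non-responder 3 and responder 3. What the codes stand for is not given, and they did not enter the test. Counting error is small at this depth for all but the lowest genes.

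The gene lists and their members were chosen with earlier results of these data known, whereas the 3 biopsies were chosen by their titles. Named were the 30 genes of highest mean FPKM, up to 6 of highest level in each list with defining markers, up to 3 in each class, the 10 of highest coefficient of variation at 10 FPKM or more, the bile acid genes of the study, and the 10 of largest fold change in each direction among called genes without overlap and a mean of at least 1 FPKM over all biopsies. The pseudogene pairs, other called genes of the secreted classes, Odc1, the single genes of the clock, feeding and lipid lists outside this rule and the genes with promoters shown were named after their values were seen. Some genes that this rule names are not reported here.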

Additional observations from a re-analysis of the deposited data

How the results depend on the processing

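The count of 129 called genes was 664 with DESeq2, 262 with limma on quantile-normalized log2(FPKM + 1) and 195 with a pseudocount of 0.1, and 115 to 171 under upper quartile scaling, no filter, the stricter filter (a count of 100) and without Rn45s. Leaving out single biopsies gave 1 to 158. With the replicate number as a block it was 0 (1767 at an unadjusted p under 0.05). The labels state no shared source for equal replicate numbers. Vehicle biopsies did not deviate together with the same-numbered biopsies of the other groups (r of −0.07 to 0.05). The cause of these differences was not tested. The count of 22 lower secreted genes, whose alternatives were chosen after seeing the data, was 44 with DESeq2, 20 to 32 under the other scalings, filters and limma, 1 to 23 with single biopsies left out and 0 with the block. None of the 20 named genes turned its direction. They were chosen from these same data for large changes without overlap, so a turn was unlikely from the start and its absence lends them no weight.

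The 4.51% of counts in secreted classes became 5.18% of summed FPKM and 4.79% without Rn45s in the total, and lay at 4.44% to 4.56% with single biopsies left out. The 185 genes that held 50% of the summed FPKM became 296 by counts, since counts weigh long transcripts more, and 181 to 186 with single biopsies left out. Of the 30 most abundant genes, 27 to 29 stayed under each alternative run. Genes of few reads, such as Mir5625, are limited by depth.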

Other observations

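Some gene groups had no place in the comparisons above. Among unfolded protein response genes 9 of 14 at 1 FPKM or more were highest in vehicle 1, and among acute phase genes 15 of 21, with Hp, which binds hemoglobin, at 688, 242 and 253 FPKM and Saa1, serum amyloid A, at 265, 84.9 and 76.7, while Hamp, the iron hormone hepcidin, was lowest there at 1.71, 7.24 and 21.4. Of male-biased liver genes 12 of 15 were lowest in vehicle 1. The background shares of genes highest and lowest in vehicle 1 were 40.5% and 42.9%. Iron storage and hepcidin genes had a summed level of 2757, 3607 and 4189 FPKM in the vehicle group and 1223 to 3063 in the other 7 biopsies, with 0 of 10 genes called by edgeR, 1 at an unadjusted p under 0.05 and 0 called by DESeq2 or limma.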
